A study of Mus musculus with 84 samples.

Results

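The genes examined here are 10 genes of the colonic crypt base and of Wnt signalling, Lgr5, Ascl2, Smoc2, Axin2, Rnf43, Sox9, Ephb2, Myc, Ccnd1 and Cd44, chosen by symbol from the 25494 genes of the deposited count table. All 10 were found there once each and all 10 passed the filter on low counts. The study fed C57BL/6 mice, from 6 weeks of age, either a 60% fat diet (HFD) or a 10% fat diet (LFD) for up to 20 weeks, and mapped H3K27ac and H3K4me1 in the colonic epithelium of both sexes and HNF4α in males. In a separate experiment germ-free male C57BL/6 mice, also 6 weeks old, received stool of male donors raised on HFD (HFB) or LFD (LFB) by gavage for 5 weeks while eating HFD or LFD themselves. This gave the 4 recipient groups HFDHFB, HFDLFB, LFDHFB and LFDLFB, named by the diet eaten and then by the donor, with 3 RNA-seq libraries each. H3K27ac in recipients was mapped in 2 HFDHFB libraries and 3 of each other group. No allele was altered in any group. The epithelium for the chromatin maps was released from the colon with EDTA, whereas the RNA came from cells scraped off the colon, so the 2 kinds of sample need not hold the same cells. Nothing in the labels says from how many mice a library was made, so p-values measure the spread between these libraries only.

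In the colonic crypt, Wnt ligands and R-spondins from the surrounding stroma keep β-catenin from being degraded in cells at the crypt base, and β-catenin with TCF/LEF factors then turns on a set of target genes. Some of these targets mark the stem cell itself, some restrain the pathway in return, and some drive division or set the position of cells along the crypt. HNF4α is a nuclear receptor of the differentiated gut epithelium whose binding motif shares the letters CAAAG with the TCF/LEF motif, and H3K27ac and H3K4me1 mark active and primed enhancers.

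RNA libraries held 39904191 to 48026846 counts. The H3K27ac libraries held 38317 to 51873 peaks, the H3K4me1 libraries 71853 to 79511 peaks and the 4 HNF4α libraries 21308 to 27766 peaks. Summed epithelium markers (8 of 8 genes tested, Epcam and the keratins among them) lay between 9796 and 15145 CPM (counts scaled to an equal library size) in the 12 RNA libraries. The libraries HFDLFB 1 and HFDLFB 2 stood apart: their summed mesothelium markers were 405 and 505 CPM against 49.7 to 208 CPM in the other 10 libraries, and their summed adipocyte markers 1350 and 3570 CPM against 39.9 to 1273 CPM. In the library HFDLFB 1 the summed proliferation markers were 93.5 CPM, against 206 to 352 CPM elsewhere. RNA comparisons with HFDLFB are therefore also given without HFDLFB 1 and with HFDLFB 3 alone (chosen after the values were seen). In the latter 1 library stands for the group and is assumed to vary like the other groups, so only its fold changes are read and not its count of genes past a threshold. The library LFDHFB 3 differed as well. It had the lowest summed epithelium markers (9796 CPM) and 1273 CPM of adipocyte markers. Its enteric neuron and glia markers summed to 249 CPM, against 35.7 to 143 CPM elsewhere. Results without LFDHFB 3 are given only where each library was left out in turn.

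The 10 genes differed widely in level. Scaled to exon length and library size (FPKM), Ccnd1, the D-type cyclin that opens the G1 phase, had the highest mean level at 12.4 (range over 12 libraries 8.89 to 17.5), at the 71.2 percentile of the 14428 genes tested that have an exon length. It was followed by Smoc2, a secreted matrix protein enriched in crypt stem cells, at 8.60 (5.65 to 14.9). Rnf43 at 5.28, Myc at 5.21 and Sox9 at 4.87 came next, then Axin2 at 3.38, Ephb2 at 2.95, Ascl2 at 2.33 and Cd44 at 2.16. Lgr5, the R-spondin receptor that defines the crypt base stem cell, was lowest at 0.332 (0.113 to 0.571), at the 13.5 percentile. Neighbours in this order had overlapping ranges over the libraries, except that every library of Cd44 (1.20 to 4.58) lay above every library of Lgr5. The exon lengths were the union of all annotated transcripts, 10264 bp for Lgr5 and 12608 bp for Ephb2, which lowers the level per length of genes with long alternative transcripts. The genes also differed in how far they varied: the highest library exceeded the lowest by 17.7-fold for Ascl2 and 5.03-fold for Lgr5, but by 1.96-fold for Ccnd1.

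**Figure D1:**
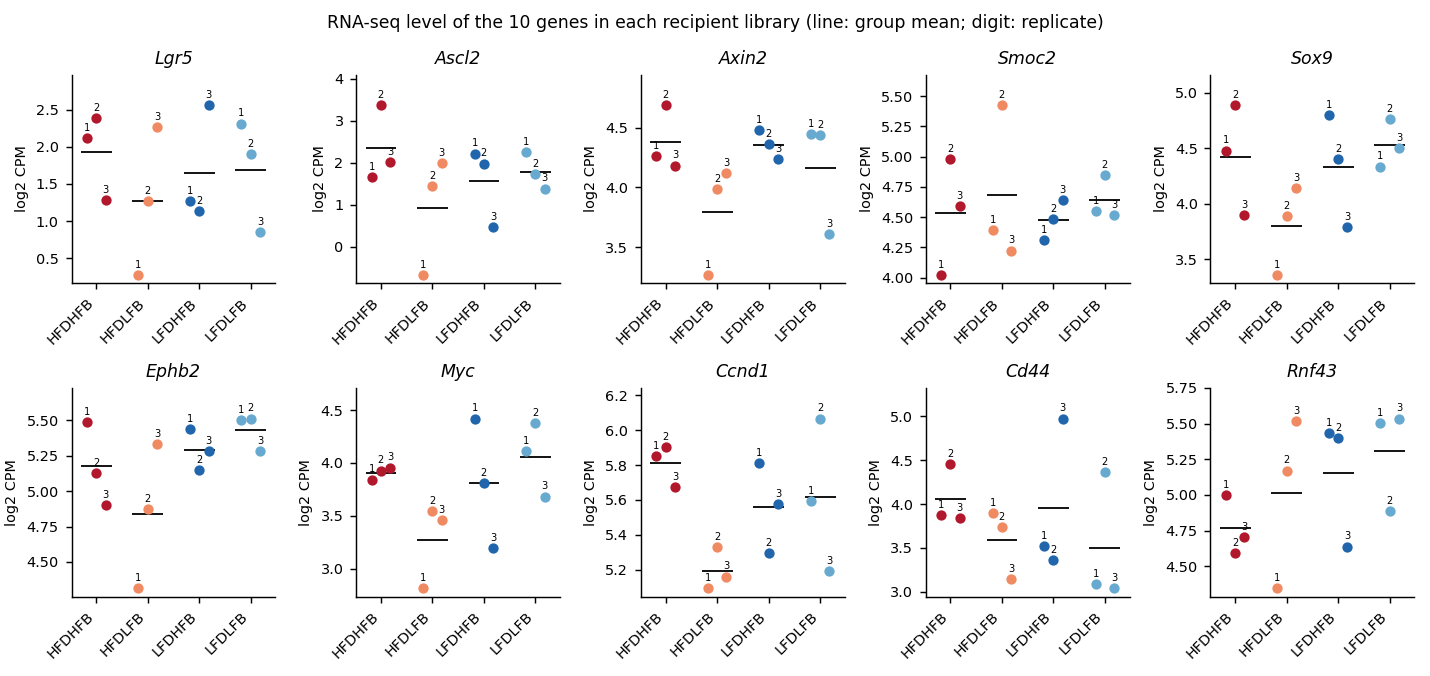
Level of each of the 10 genes (log2 CPM, y axis, a separate range for each gene) in the 3 libraries of each recipient group (points with the library number), with the group mean (line). The library HFDLFB 1 is the lowest of the 12 for 8 of the 10 genes, and the groups overlap for most genes.

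Among the stem cell genes, Lgr5 and Ascl2 were at few counts and differed as much within groups as between them. Lgr5 (gene ID 14160, chr10:114887370-115024836, minus strand, mm9) varied in every group. In libraries 1, 2 and 3 of each group, in CPM, Lgr5 was at 4.30, 5.19 and 2.38 in HFDHFB, at 1.16, 2.37 and 4.76 in HFDLFB, at 2.36, 2.14 and 5.86 in LFDHFB and at 4.93, 3.69 and 1.76 in LFDLFB. Both the lowest and a high library stood in HFDLFB, and all 4 groups overlapped. The fitted log2 fold change of HFDHFB against HFDLFB was 0.52 ± 0.58 (SE), with a 95% confidence interval from -0.75 to 1.79 and an edgeR adjusted p of 0.824. It was 0.15 without HFDLFB 1 and -0.27 with HFDLFB 3 alone. Under LFD the log2 fold change of LFDHFB against LFDLFB was -0.0036, with an interval from -1.27 to 1.26. In scraped tissue fewer stem cells and less Lgr5 RNA per cell cannot be told apart.

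Ascl2 (gene ID 17173, chr7:150152727-150155169, minus strand), the transcription factor that holds cells in the stem cell state, had the largest fitted difference of the 10 genes and also the widest spread. Its level in CPM, by library, was 3.13, 10.3 and 4.01 in HFDHFB, 0.582, 2.66 and 3.93 in HFDLFB, 4.61, 3.90 and 1.34 in LFDHFB and 4.73, 3.28 and 2.56 in LFDLFB. The library HFDHFB 2 was the highest and HFDLFB 1 the lowest of all. HFDHFB and HFDLFB overlapped, and their log2 fold change was 1.28 ± 0.68, with an interval from -0.21 to 2.77 (edgeR adjusted p = 0.597). It was 0.82 without HFDLFB 1 and 0.56 with HFDLFB 3 alone.

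Smoc2 (gene ID 64074, chr17:14416513-14541797, plus strand) had its lowest library in HFDHFB and its highest in HFDLFB. Smoc2 was measured, in CPM and by library, at 16.2, 31.5 and 24.0 in HFDHFB, at 20.9, 42.8 and 18.6 in HFDLFB, at 19.8, 22.3 and 24.8 in LFDHFB and at 23.4, 28.7 and 22.8 in LFDLFB. Its log2 fold change was -0.20 ± 0.31 for HFDHFB against HFDLFB (edgeR adjusted p = 0.887), and the interval of -0.88 to 0.48 held changes in either direction. The value was -0.36 without HFDLFB 1, 0.29 without HFDLFB 2 and 0.36 with HFDLFB 3 alone, so its sign turned on leaving out HFDLFB 2.

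The feedback inhibitors Axin2 and Rnf43, both Wnt targets that damp the pathway, had fold changes of opposite sign between donors under HFD. Axin2 (gene ID 12006, chr11:108781663-108812095, plus strand) is the scaffold of the complex that degrades β-catenin. By library, in CPM, the level was 19.2, 25.8 and 18.1 in HFDHFB, 9.58, 15.8 and 17.3 in HFDLFB, 22.3, 20.5 and 18.8 in LFDHFB and 21.8, 21.7 and 12.1 in LFDLFB. All 3 HFDHFB libraries lay above all 3 HFDLFB libraries, which is also the case in this direction for 8.11% of all 15893 genes tested. The log2 fold change was 0.56 ± 0.26, with an interval from -0.02 to 1.14 (edgeR adjusted p = 0.556), 0.34 without HFDLFB 1 and 0.27 with HFDLFB 3 alone.

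Rnf43 (gene ID 207742, chr11:87476589-87549041, plus strand) is the ubiquitin ligase that removes Frizzled receptors from the cell surface. In libraries 1, 2 and 3 of each group, in CPM, Rnf43 was at 31.9, 24.1 and 26.0 in HFDHFB, at 20.3, 36.0 and 45.8 in HFDLFB, at 43.1, 42.2 and 24.9 in LFDHFB and at 45.3, 29.5 and 46.3 in LFDLFB. All 4 groups overlapped, and HFDLFB held both the lowest library and 1 of the highest. Its log2 fold change was -0.32 ± 0.30 for HFDHFB against HFDLFB (edgeR adjusted p = 0.791), opposite in sign to that of Axin2, and -0.42 ± 0.30 for HFDHFB against LFDHFB (adjusted p = 0.835). The first value was -0.58 without HFDLFB 1 and -0.75 with HFDLFB 3 alone.

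Sox9 and Ephb2 mark the lower crypt. Sox9 (gene ID 20682, chr11:112643524-112649071, plus strand) is a transcription factor of stem and progenitor cells. Its level in CPM, by library, was 22.3, 29.5 and 14.9 in HFDHFB, 10.2, 14.8 and 17.6 in HFDLFB, 27.8, 21.1 and 13.8 in LFDHFB and 20.1, 27.2 and 22.6 in LFDLFB. All 3 HFDLFB libraries lay below all 3 LFDLFB libraries, a pattern that 6.62% of all genes showed in this direction. The log2 fold change of HFDLFB against LFDLFB was -0.71 ± 0.30, with an interval from -1.38 to -0.04 (edgeR adjusted p = 0.881), and that of HFDHFB against HFDLFB was 0.65 ± 0.30 (adjusted p = 0.556). Without HFDLFB 1 these were -0.52 and 0.45, and with HFDLFB 3 alone -0.40 and 0.33.

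Ephb2 (gene ID 13844, chr4:136203456-136391927, minus strand) is the receptor that positions cells along the crypt axis through repulsion by ephrin-B ligands. Ephb2 was measured, in CPM and by library, at 44.9, 35.0 and 29.9 in HFDHFB, at 19.8, 29.2 and 40.2 in HFDLFB, at 43.3, 35.4 and 38.9 in LFDHFB and at 45.3, 45.6 and 38.9 in LFDLFB. The library HFDLFB 1 was the lowest of the 12, and HFDLFB 3 reached into the range of LFDLFB. The log2 fold change of HFDLFB against LFDLFB was -0.54 ± 0.23, with an interval from -1.04 to -0.04 (edgeR adjusted p = 0.881), -0.32 without the library HFDLFB 1 and -0.10 with HFDLFB 3 alone.

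Myc and Ccnd1 are the targets through which the pathway reaches the cell cycle. Myc (gene ID 17869, chr15:61816896-61821916, plus strand) encodes a transcription factor of growth. By library, in CPM, the level was 14.3, 15.2 and 15.5 in HFDHFB, 7.0, 11.7 and 10.96 in HFDLFB, 21.3, 14.0 and 9.12 in LFDHFB and 17.2, 20.8 and 12.8 in LFDLFB. The HFDLFB libraries lay below both the HFDHFB and the LFDLFB libraries without overlap. Taken singly, 8.11% of all genes tested showed the first pattern and 6.62% the second. The share with both was not counted. Its log2 fold change was 0.60 ± 0.30 for HFDHFB against HFDLFB (edgeR adjusted p = 0.572) and -0.78 ± 0.30 for HFDLFB against LFDLFB, with an interval from -1.44 to -0.12 (adjusted p = 0.881). Without HFDLFB 1 these were 0.40 and -0.58, and with HFDLFB 3 alone 0.45 and -0.63.

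Ccnd1 (gene ID 12443, chr7:152115836-152125830, minus strand) was the one gene of the 10 with an unadjusted p under 0.05 for HFDHFB against HFDLFB. In libraries 1, 2 and 3 of each group, in CPM, Ccnd1 was at 57.7, 59.8 and 50.9 in HFDHFB, at 34.1, 40.2 and 35.7 in HFDLFB, at 56.1, 39.2 and 47.7 in LFDHFB and at 48.1, 66.9 and 36.4 in LFDLFB. No HFDHFB library was under 50.9 CPM and no HFDLFB library over 40.2 CPM, while the LFD groups spanned both ranges. Such a gap between HFDHFB and HFDLFB in this direction was present for 8.11% of all genes tested. The log2 fold change was 0.61 ± 0.20, with an interval from 0.17 to 1.06 (edgeR adjusted p = 0.495). The difference between the donor effects under HFD and LFD was 0.70 ± 0.28 on the log2 scale, with an interval from 0.07 to 1.32 (edgeR adjusted p = 0.417). Without HFDLFB 1 these were 0.56 and 0.65, and with HFDLFB 3 alone 0.65 and 0.74.

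Cd44 (gene ID 12505, chr2:102651300-102741822, minus strand), a hyaluronan receptor that is a Wnt target in the crypt and is also made by many stromal and immune cells, had its highest library in LFDHFB and its lowest in LFDLFB. Its level in CPM, by library, was 14.6, 21.9 and 14.3 in HFDHFB, 14.9, 13.3 and 8.77 in HFDLFB, 11.4, 10.2 and 31.4 in LFDHFB and 8.45, 20.5 and 8.19 in LFDLFB. In both LFD groups 1 library stood far above the other 2. The log2 fold changes were 0.46 ± 0.47 for HFDHFB against HFDLFB and 0.51 ± 0.47 for LFDHFB against LFDLFB (edgeR adjusted p = 0.801 and 0.98). The first was 0.62 without HFDLFB 1 and 0.95 with HFDLFB 3 alone.

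Counted together, 8 of the 10 genes had a log2 fold change above 0 for HFDHFB against HFDLFB, with a median of 0.54 against 0.00 for all genes tested, and 9 of 10 were below 0 for HFDLFB against LFDLFB, with a median of -0.42 against 0.00. These comparisons share the HFDLFB libraries, so the counts are not independent of each other. The medians for the other comparisons were -0.12 for LFDHFB against LFDLFB and 0.06 for HFDHFB against LFDHFB. No member passed an adjusted p under 0.05 in edgeR in any of these 4 comparisons or in the interaction, and the share of all genes that passed was 0% in each of the 5. DESeq2 called 80 genes for HFDHFB against HFDLFB, 1 for LFDHFB against LFDLFB, 147 for HFDHFB against LFDHFB, 11 for HFDLFB against LFDLFB and 96 for the interaction, none of them a member, with a smallest adjusted p among members of 0.218.

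At an unadjusted p under 0.05, 1 of 10 members passed for HFDHFB against HFDLFB, where 9.07% of all genes did (4.85% of all genes upwards), and 1 of 10 in the interaction, where 11.3% did (6.34% above 0). For HFDLFB against LFDLFB 4 of 10 members passed (Sox9, Ephb2, Myc and Ccnd1, all lower in HFDLFB), where 5.33% of all genes did and 1.76% did so downwards. None passed for LFDHFB against LFDLFB or HFDHFB against LFDHFB, with backgrounds of 3.72% and 7.46%. The 4 of 10 changed with single libraries: the count was 0 without HFDLFB 1 (4.47% of all genes), 0 without LFDLFB 2 (2.98%), 1 without LFDLFB 1 (3.59%) and 2 without HFDLFB 2 (2.84%). It was 3 without HFDLFB 3 (9.34%) and 4 without LFDLFB 3 (4.84%), each with 1 library fewer in the comparison. With each of the 12 libraries left out in turn, the count for HFDHFB against HFDLFB lay between 1 and 5. The 5, all higher in HFDHFB, came without HFDLFB 3, where 12.3% of all genes passed. For the interaction that count lay between 0 and 3. Without HFDLFB 1, the library with the fewest proliferation marker counts, the median of the 10 genes was -0.16 for HFDLFB against LFDLFB and 0.37 for HFDHFB against HFDLFB. With HFDLFB 3 alone it was -0.25 and 0.34. In both cases 7 of 10 were below 0 for HFDLFB against LFDLFB, and 8 and 7 of 10 were above 0 for HFDHFB against HFDLFB.

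**Figure D2:**
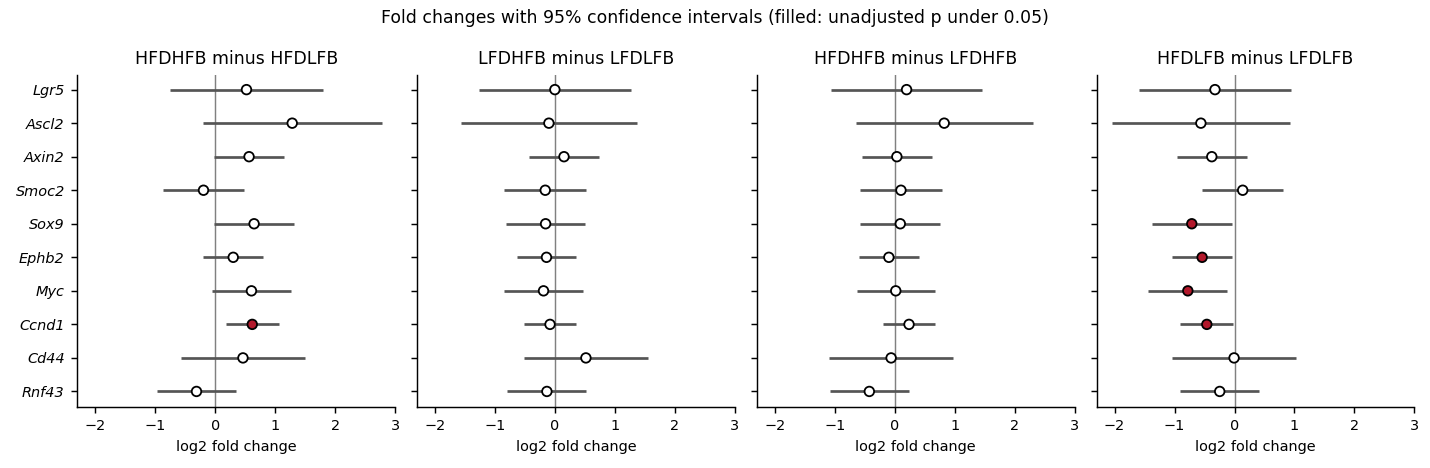
Log2 fold change (x axis) of the 10 genes in the 4 comparisons between recipient groups, as point estimates with 95% confidence intervals from the edgeR model. Filled points have an unadjusted p under 0.05, which holds for Ccnd1 in the first comparison and for Sox9, Ephb2, Myc and Ccnd1 in the fourth, and no adjusted p passed 0.05.

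The rest of the pathway was followed by gene lists, and each count at an unadjusted p under 0.05 for HFDHFB against HFDLFB stands against the 9.07% of all genes that passed there. Of the Wnt ligands, 0 of 6 tested were higher and 2 lower at an unadjusted p under 0.05 in HFDHFB against HFDLFB, with Wnt2b, a stromal ligand, at a log2 fold change of -1.86. Of the R-spondins, which amplify Wnt signals through Lgr receptors, 0 of 3 were higher and 1 was lower, Rspo1 at -2.44. Both lists were highest in the libraries with the most mesothelium RNA: their sums were 47.1 and 42.7 CPM for ligands and 36.0 and 33.3 CPM for R-spondins in the libraries HFDLFB 1 and 2, against 9.60 to 25.1 CPM and 4.26 to 17.7 CPM in the other 10 libraries, and all 7 tested mesothelium markers were lower in HFDHFB (median -2.37). With HFDLFB 3 alone the list medians turned, from -0.52 to 0.35 for ligands and from -0.52 to 1.71 for R-spondins. Without HFDLFB 1 they were -0.17 and 0.41. Whether the ligand values follow the mesothelial cells was not tested. Of 13 Wnt receptors 1 was lower (Fzd4, -1.42) and none higher, of 7 secreted inhibitors none passed in either direction, and of 17 components of the destruction complex and its effectors 1 was lower (Bcl9l, -0.42).

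Downstream, 15 of 17 other intestinal Wnt targets had a log2 fold change above 0 for HFDHFB against HFDLFB, with a median of 0.20, and 1 passed an unadjusted p under 0.05 (Cdca7, 0.64). For HFDLFB against LFDLFB 12 of the 17 were below 0 (median -0.21) and 2 passed, both lower. Of all genes 5.33% passed in that comparison and 1.76% did so downwards. The general epithelium markers lay alike: 7 of 8 were above 0 in the first comparison (median 0.23) and 8 of 8 below 0 in the second (median -0.24). Of the differentiated colonocyte markers 3 of 8 were above 0 in the first (median -0.07) and 6 of 8 below 0 in the second (median -0.17). In the first comparison 8 of 8 endothelium, 8 of 8 leukocyte and 6 of 8 fibroblast markers were below 0. Among 15 other crypt stem and progenitor markers 13 were above 0 in the first comparison (median 0.23) and 1 passed, again Cdca7. The Wnt target and crypt lists share 4 tested genes (Cdca7, Rgmb, Slc12a2 and Tnfrsf19) and are not separate evidence. With HFDLFB 3 alone the medians of the first comparison were 0.16 for the Wnt targets, 0.24 for the crypt markers and 0.06 for the epithelium markers, and without HFDLFB 1 they were 0.22, 0.23 and 0.25.

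All 8 proliferation markers were above 0 (median 0.71) and 3 passed, with Birc5, a mitotic protein, at 1.02. The comparison holds HFDLFB 1, the library with 93.5 CPM of these markers, and without it 7 of 8 were above 0 with a median of 0.24 and 3 passed, where 7.39% of all genes did. The Notch list had 1 gene higher (Atoh1, the secretory lineage factor, 0.59) and 1 lower of 8, and the BMP list none of 14. Among the other cell types, 4 of 8 goblet markers were higher and none lower (median 0.53), and 3 were higher without HFDLFB 1 (median 0.36). Of the adipocyte markers 6 of 8 were lower, 5 without HFDLFB 1. The smooth muscle markers had a median of 0.77 with none past the threshold, but 1.44 with 4 of 8 higher without HFDLFB 1. With HFDLFB 3 alone the medians were 0.23 for proliferation, 0.25 for goblet, -0.66 for adipocyte and 2.09 for smooth muscle markers. Olfm4, the stem cell marker of the small intestine, was in the table with at most 3 counts in a library and was not tested.

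Across the 12 libraries, 36 of the 45 pairs of members had a Pearson r above 0 and 20 an r above 0.5, with a median of 0.40 (log2 CPM). These are descriptions over libraries that share groups and cell composition, and no p is attached. The share of such pairs among all genes was not counted, so the counts do not set the members apart from other genes. The library HFDLFB 1 was the lowest of the 12 for 8 members, and 1 such library can raise a Pearson r. How far it set these values was not tested. Sox9 with Myc (r = 0.83) and Ascl2 with Axin2 (r = 0.81) were the closest pairs by Pearson r, and Cd44 with Rnf43 (r = -0.80) the most opposed. By ranks (Spearman rho) these pairs were at 0.71, 0.77 and -0.91, and Myc with Ccnd1 was closest (rho = 0.78, r = 0.73). Some pairs were weaker by ranks, such as Lgr5 with Ephb2 (r = 0.66, rho = 0.34). Ephb2 followed the sum of the other intestinal Wnt targets (r = 0.92). Cdx1 (mean 310 CPM), Ets2 (233 CPM) and Slc12a2 (200 CPM) weigh most in that sum, which is not a measure of Wnt activity. Sox9 and Ascl2 followed the summed Notch list (r = 0.85 and 0.88). In that list Hes1 (mean 50.4 CPM) and Atoh1 (49.6 CPM) weigh most, and the sum is not a measure of Notch activity. Rnf43 followed the Wnt receptors (r = 0.88) and ran against the secreted Wnt inhibitors (r = -0.91), enteric neuron and glia markers (r = -0.85) and smooth muscle markers (r = -0.82). Cd44 did the reverse, with r = 0.88 for neuron and glia markers and r = 0.70 for smooth muscle markers. What part the share of muscle in the scraped cells had in these values was not tested. Smoc2 had an r between -0.23 (Ephb2) and 0.33 (Cd44) with the other members, and 0.02 with Lgr5. With the lists it ranged from -0.60 (destruction complex and effectors) to 0.64 (adipocyte markers), and was -0.54 for the epithelium markers. Which cells the Smoc2 RNA came from was not tested.

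**Figure D3:**
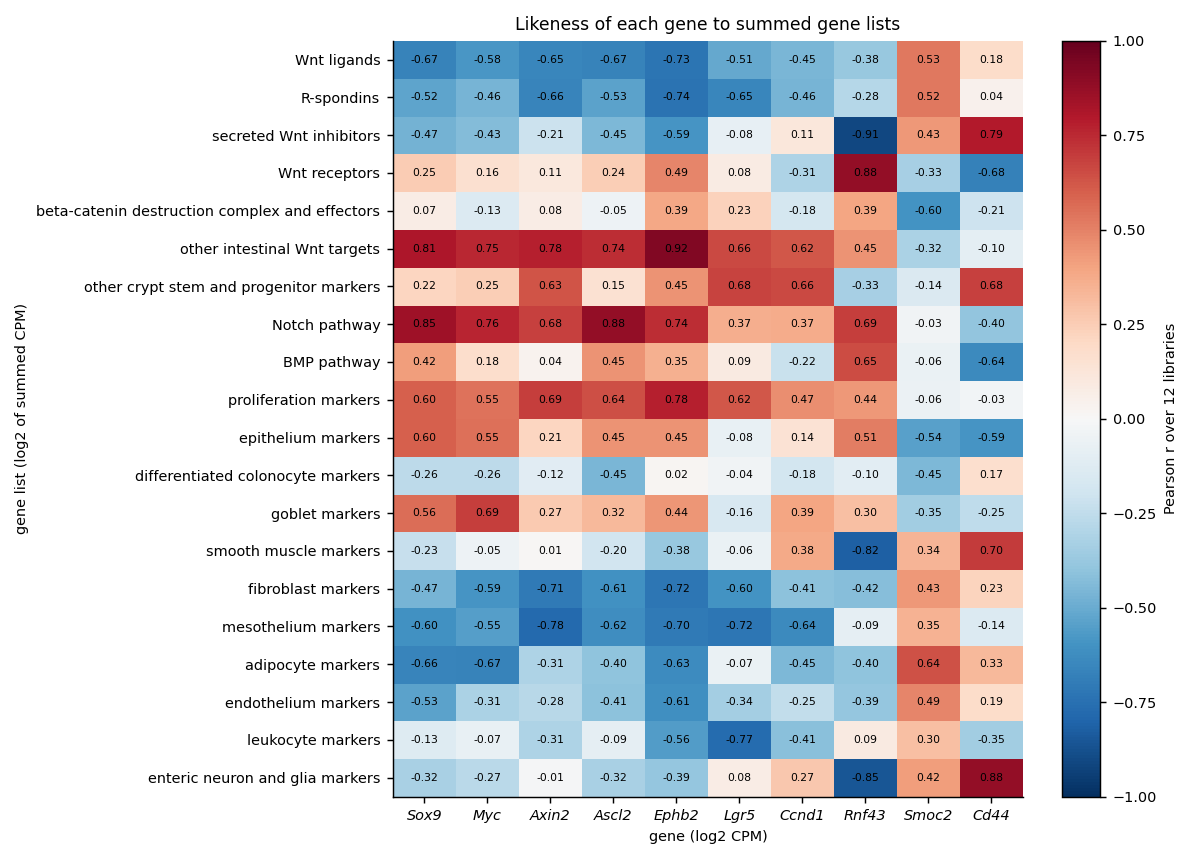
Pearson r (colour, -1 to 1) over the 12 RNA libraries between the log2 CPM of each gene (columns) and the log2 of the summed CPM of each gene list (lines). Ephb2 is closest to the sum of the other intestinal Wnt targets (0.92), in which Cdx1, Ets2 and Slc12a2 weigh most. Rnf43 and Cd44 have opposite signs for smooth muscle markers (-0.82 and 0.70).

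The genes whose levels were most like Lgr5 over the 12 libraries were Primpol (r = 0.894), Cyp2w1 (0.855), Tmem186 (0.850), Gm609 (0.847) and Rmi2 (0.846). For Ascl2 they were Phlda2 (0.940) and Trim28 (0.932), for Smoc2 Ism1 (0.885) and Rasl12 (0.880), and for Axin2 Nrarp (0.943) and Slc22a15 (0.938). For Rnf43 they were Spata13 (0.960) and Klf5 (0.953), and for Cd44 Ap3b2 (0.960) and Mab21l1 (0.959). Sox9 was most like 2410002F23Rik (0.937) and Atic (0.928), Ephb2 most like Sypl (0.941) and Qsox2 (0.939). Myc was most like 2010111I01Rik (0.948) and Pla2g2a (0.941), and Ccnd1 most like Hoxaas3 (0.946) and Cct3 (0.940).

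The chromatin around these genes was read as the length under peaks within the gene and 10 kb on either side (mm9). At most members H3K27ac covered more than at the median gene: it covered 46.5% of the Rnf43 window, 36.0% for Sox9, 26.9% for Axin2 and 26.1% for Myc on average over the 12 libraries of the long-term diets, against a median of 4.75% over all genes. That median is over all 25494 genes, those that failed the filter on low counts included. Cd44 (11.4%, 67.8 percentile) and Ascl2 (7.95%, 59.6 percentile) were nearer to it. Lgr5 (3.68%) and Smoc2 (2.59%) were below that median. These shares also depend on the window length, which was 22443 bp for Ascl2, 25021 bp for Myc, 157467 bp for Lgr5 and 208472 bp for Ephb2. In bp, Lgr5 carried a mean of 6100 under HFD and 5500 under LFD. Myc carried 6500 and 6567 bp, and Ascl2 1833 and 1733 bp. H3K4me1 covered from 14.6% for Lgr5 to 63.9% for Rnf43, against a median of 13.0%. At Sox9 (29.0%) and Myc (24.2%) it covered less than H3K27ac did. The 51 H3K27ac regions at the members included 20 that were in all 12 libraries, and none was in every library of a diet and no library of the other. The windows of 6 members also hold other genes, among them Oraov1 beside Ccnd1 and Supt4a, Hsf5 and 1110028F11Rik beside Rnf43, whose chromatin is counted with them.

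After long-term feeding, Ephb2 was the one member whose H3K27ac differed between diets at an unadjusted p under 0.05. Its window carried 30800, 36200 and 30000 bp in HFD males and 33000, 37000 and 32927 bp in HFD females, against 29400, 24200 and 32400 bp in LFD males and 30400, 28400 and 26600 bp in LFD females. HFD female libraries covered more of the whole genome than LFD female libraries, 109 to 121 Mb against 100 to 104 Mb. In males these ranges overlapped, at 104 to 127 Mb under HFD and 111 to 125 Mb under LFD. At Ephb2 the HFD females lay above all LFD libraries, while the males of the 2 diets overlapped. The share of this order over all genes was not counted, so the order does not set Ephb2 apart. The mean was 33321 bp under HFD and 28567 bp under LFD, a difference of 4754.5 bp or 16.6% (exact permutation test within sexes, two-sided, p = 0.02, adjusted p = 1). At an unadjusted p under 0.05, 1 of 10 members passed where 4.15% of all genes did. Scaled to the length covered by each library the Ephb2 difference gave an exact permutation p of 0.105, and without the library HFD male 2, LFD male 2 or LFD female 3 it gave p = 0.07, 0.06 and 0.05. The other 9 genes had exact permutation p of 0.09 or more. Sox9 had 467 bp less under HFD (exact permutation p = 0.09), and 8 of 10 members were above 0 with a median of 583 bp, where 66% of all genes tested were above 0 with a median of 198 bp.

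For H3K4me1 no member passed an unadjusted p under 0.05 between diets. The exact permutation p lay between 0.39 and 0.985 where 3.42% of all genes had a p under 0.05. The largest relative difference was at Sox9, with 7767 bp under HFD and 7033 bp under LFD (10.4%). At Lgr5 the libraries carried 19800 to 27800 bp in LFD and 22200 to 24800 bp in HFD, so the HFD values lay inside the LFD range.

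In H3K27ac 2 members had an unadjusted p under 0.05 between the sexes, a comparison that was added after the values had been seen. The Lgr5 window carried 3600, 4800 and 5600 bp of H3K27ac in HFD males and 2400, 1400 and 4000 bp in LFD males, but 7600, 7800 and 7200 bp in HFD females and 7000, 8000 and 10200 bp in LFD females. Every female library lay above every male library, at either diet. The mean was 7967 bp in females and 3633 bp in males (exact permutation test within diets, p = 0.005, adjusted p = 0.433). For Axin2 the order was the same, with 13938 to 17338 bp in females and 9938 to 13338 bp in males (exact permutation p = 0.005, adjusted p = 0.433). Of all genes 7.82% had an unadjusted p under 0.05 and 0.635% did not overlap between the sexes, and 24.9% of the genes with a p under 0.05 were higher in females, as Lgr5 and Axin2 were. Ascl2 had 2167 bp in females and 1400 bp in males (exact permutation p = 0.05), and the other 7 members had a p of 0.165 or more. H3K4me1 showed no such split: at Lgr5 it covered 23400 bp in females and 22433 bp in males, and no member had a p under 0.385, with 6.14% of all genes under 0.05. Males and females have separate input libraries in the labels, and sex and library preparation cannot be told apart.

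**Figure D4:**
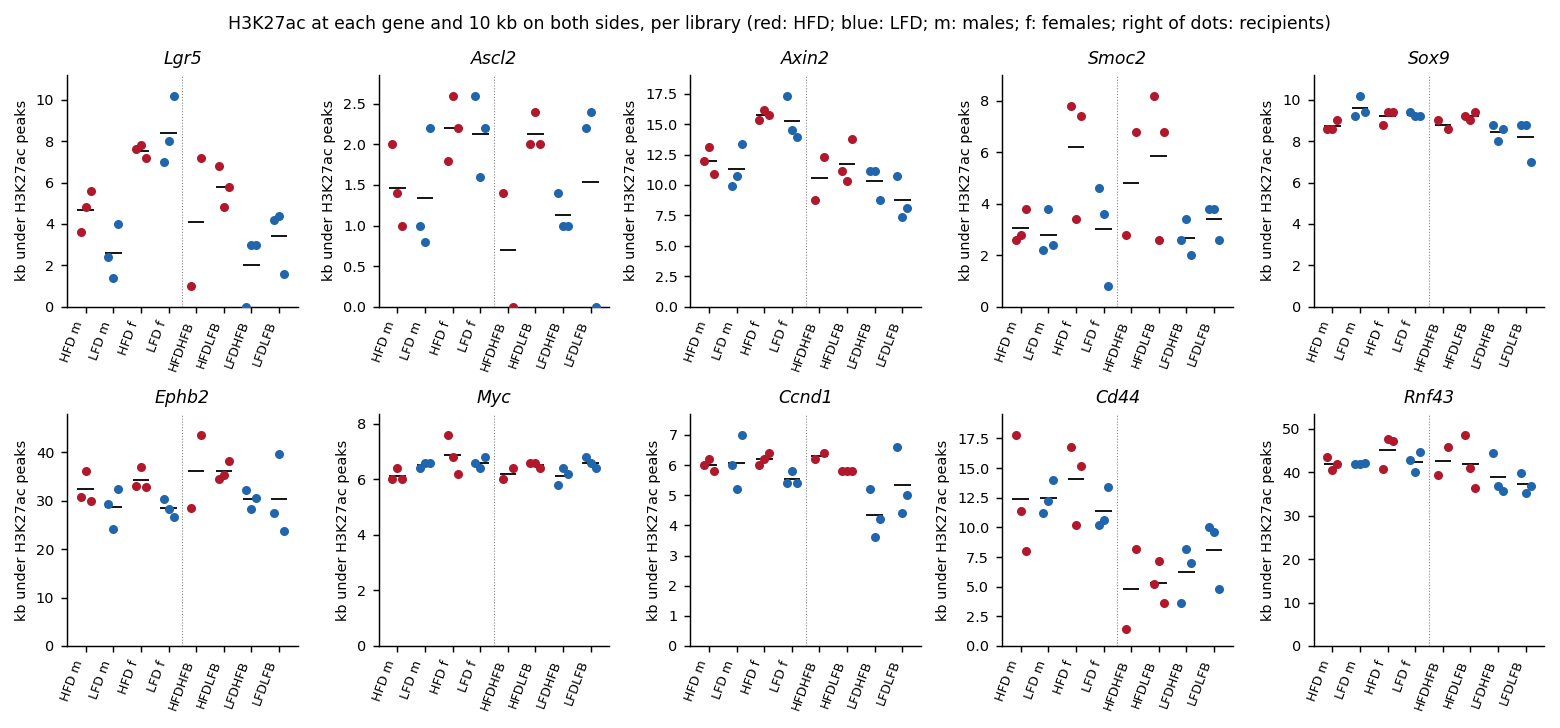
Length under H3K27ac peaks (kb, y axis from 0) within the window of each gene in the long-term libraries by diet and sex and in the recipient libraries by group (points), with group means (lines). Female libraries of Lgr5 and Axin2 lie above all male libraries of the long-term experiment, and the HFD recipients overlap the LFD recipients for every gene.

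In the germ-free recipients, the diet eaten was set beside the same windows. Lgr5 carried 1000 and 7200 bp in HFDHFB, 6800, 4800 and 5800 bp in HFDLFB, 0, 3000 and 3000 bp in LFDHFB, and 4200, 4400 and 1600 bp in LFDLFB. All HFDLFB libraries lay above all LFD libraries, an order whose share over all genes was not counted. The 2 HFDHFB libraries were the farthest apart. The difference of 2250 bp between diets had an exact permutation p of 0.125 (within donors, two-sided). Ccnd1 carried 6200 and 6400 bp in HFDHFB, 5800 bp in each HFDLFB library, 5200, 3600 and 4200 bp in LFDHFB, and 6600, 4400 and 5000 bp in LFDLFB, with 1 LFD library above all HFD libraries (difference 1217 bp, exact permutation p = 0.07). Sox9 had the smallest p of the 10 genes (0.06) with a difference of 667 bp. No member passed where 15% of all genes did. In all, 8 of 10 members were above 0, as were 80.4% of all genes, with a median of 1408 bp against 583 bp over all genes. HFD libraries covered more of the genome, 107 to 132 Mb in HFDHFB and 115 to 123 Mb in HFDLFB, against 98.8 to 105 Mb in LFDHFB and 93.1 to 117 Mb in LFDLFB, and 96.3% of the genes called were higher under HFD.

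The start of Lgr5 was covered by an H3K27ac peak in 4 of 5 HFD recipients (HFDHFB 2 and all 3 HFDLFB libraries) and in 0 of 6 LFD recipients. The region that spans the start when peaks are merged over libraries (chr10:115021601-115025400) held a peak in 5 of 5 HFD and 5 of 6 LFD recipients. Apart from LFDHFB 1, every library thus held a peak somewhere in that merged region, also where no peak covered the start base. Whether these were the same peak was not tested. This reading was added after the values had been seen, and 0.214% of the 13533 gene starts covered in any recipient library had at least 4 of 5 HFD and no LFD library. In the long-term libraries the same start was covered in 5 of 6 HFD and 5 of 6 LFD libraries, so this split was not seen there. Lgr5 RNA in the recipients had log2 fold changes of 0.20 for HFDHFB against LFDHFB and -0.33 for HFDLFB against LFDLFB (edgeR adjusted p = 0.962 and 0.949).

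Cd44 carried 1400 to 8200 bp in the HFD and 3600 to 10000 bp in the LFD recipients, against 8000 to 17800 bp in the long-term libraries, a comparison across separate experiments that was not tested.

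Between donors, Myc was the one member with an unadjusted p under 0.05. It carried 6000 and 6400 bp in HFDHFB and 6600, 6600 and 6400 bp in HFDLFB, 5800, 6400 and 6200 bp in LFDHFB and 6800, 6600 and 6400 bp in LFDLFB. The values moved in steps of the peak caller's window and the donor groups touched at 6400 bp. The difference was -400 bp (exact permutation test within diets, p = 0.03, adjusted p = 1), where 3.31% of all genes passed. It was lost on leaving out the library HFDHFB 1 (p = 0.10), HFDLFB 1 or 2 (p = 0.0667 each), LFDHFB 1 or 3, or LFDLFB 1 or 2 (exact permutation p = 0.05 each).

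HNF4α peaks fell at 9 of the 10 members, where 62.6% of all genes had one, and none fell in the Sox9 window. In all, 5 members had a peak in all 4 libraries, as did 26.5% of all genes. With 2 libraries of each diet there are only 3 divisions into pairs, and the counts are a description. Rnf43 had the most, with 4 and 6 peaks in the HFD libraries and 7 and 6 in the LFD libraries, at the 98.8 percentile of all genes. Ephb2 had 4 and 3 under HFD and 3 and 1 under LFD, Axin2 1 and 3 against 3 and 1, and Smoc2 1 and 2 against 4 and 0. Lgr5 had 1 peak in each HFD library, at different intronic places, and none under LFD, so its diets did not overlap, as for 7.5% of all genes. Ascl2 had 1 peak in 1 LFD library, and Cd44 2 and 0 against 0 and 2. Myc had the same peak 1937 bp upstream of its start in all 4 libraries, while the 4 Ccnd1 peaks, 1 in each library, were at 4 different sites. Summed over the 10 genes there were 32 peaks under HFD and 32 under LFD.

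The 35 separate HNF4α sites at the members comprised 6 that were in all 4 libraries, 20 that were in 1 library only, and 1 that was in both LFD libraries and no HFD library. The 6 sites shown are those where the libraries agree, or part by diet, at the 3 genes with most peaks: the upstream sites of Axin2 and Ephb2 and 3 Rnf43 intron sites, which were in all 4 libraries, and the Rnf43 intron site found under LFD only. The sequences are of the plus strand of mm9, and the capitals mark the TCF/LEF core CTTTGAT.
Axin2, chr11:108772312-108772566, intergenic, centre 9224 bp upstream: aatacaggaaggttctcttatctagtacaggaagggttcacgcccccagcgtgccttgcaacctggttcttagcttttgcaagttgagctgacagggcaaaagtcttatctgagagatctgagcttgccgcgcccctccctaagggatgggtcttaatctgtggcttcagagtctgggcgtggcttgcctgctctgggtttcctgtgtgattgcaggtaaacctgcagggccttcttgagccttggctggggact
Ephb2, chr4:136398738-136398989, intergenic, centre 6936 bp upstream: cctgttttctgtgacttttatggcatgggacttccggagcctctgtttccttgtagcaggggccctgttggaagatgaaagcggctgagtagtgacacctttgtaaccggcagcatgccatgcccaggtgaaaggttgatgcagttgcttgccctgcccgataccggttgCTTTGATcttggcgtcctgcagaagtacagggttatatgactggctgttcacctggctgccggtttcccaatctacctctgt
Rnf43, chr11:87496694-87496962, intron, all 4 libraries: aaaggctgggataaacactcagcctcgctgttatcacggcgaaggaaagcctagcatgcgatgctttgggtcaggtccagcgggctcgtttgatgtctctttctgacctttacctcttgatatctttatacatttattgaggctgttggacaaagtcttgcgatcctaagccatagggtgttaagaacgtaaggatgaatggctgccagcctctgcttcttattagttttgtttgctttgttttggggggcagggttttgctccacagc
Rnf43, chr11:87503012-87503245, intron, LFD libraries only: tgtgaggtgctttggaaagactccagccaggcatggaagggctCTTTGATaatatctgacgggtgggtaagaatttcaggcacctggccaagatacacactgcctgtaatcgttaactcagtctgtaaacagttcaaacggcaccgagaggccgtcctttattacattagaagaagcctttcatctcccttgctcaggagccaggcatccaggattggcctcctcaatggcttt
Rnf43, chr11:87515726-87516018, intron, all 4 libraries: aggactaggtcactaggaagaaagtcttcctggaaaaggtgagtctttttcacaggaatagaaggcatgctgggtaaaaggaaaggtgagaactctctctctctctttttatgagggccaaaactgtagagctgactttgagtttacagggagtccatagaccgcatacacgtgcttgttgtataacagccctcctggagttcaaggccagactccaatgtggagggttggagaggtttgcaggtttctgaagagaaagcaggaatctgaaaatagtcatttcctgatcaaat
Rnf43, chr11:87523127-87523418, intron, all 4 libraries: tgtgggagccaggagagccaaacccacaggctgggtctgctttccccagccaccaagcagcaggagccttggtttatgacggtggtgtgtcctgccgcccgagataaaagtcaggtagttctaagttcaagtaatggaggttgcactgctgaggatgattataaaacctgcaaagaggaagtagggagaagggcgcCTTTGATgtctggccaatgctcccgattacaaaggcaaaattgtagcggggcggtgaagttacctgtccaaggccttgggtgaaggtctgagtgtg

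Of these 6 sequences 3 hold the TCF/LEF core once, the other 3 do not hold it, and none holds the HNF4 core CAAAGNNCA. Both motifs were searched on both strands in the central 240 bases of each site, and CAAAG is common to CAAAGNNCA and to ATCAAAG, the reverse complement of the TCF/LEF core, so a stretch can match both. Of the 35 member sites 5 held the TCF/LEF core and 4 the HNF4 core, against 5.79% and 20.6% of all 49524 HNF4α sites. In the promoters from RefSeq (GRCm38.p6, 250 bases before to 50 after the start), found for Ascl2, Axin2, Ephb2, Cd44 and Rnf43, neither motif occurred in any of the 6 sequences, against 3.73% (TCF/LEF) and 6.36% (HNF4) of 32851 promoters.

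**Figure D5:**
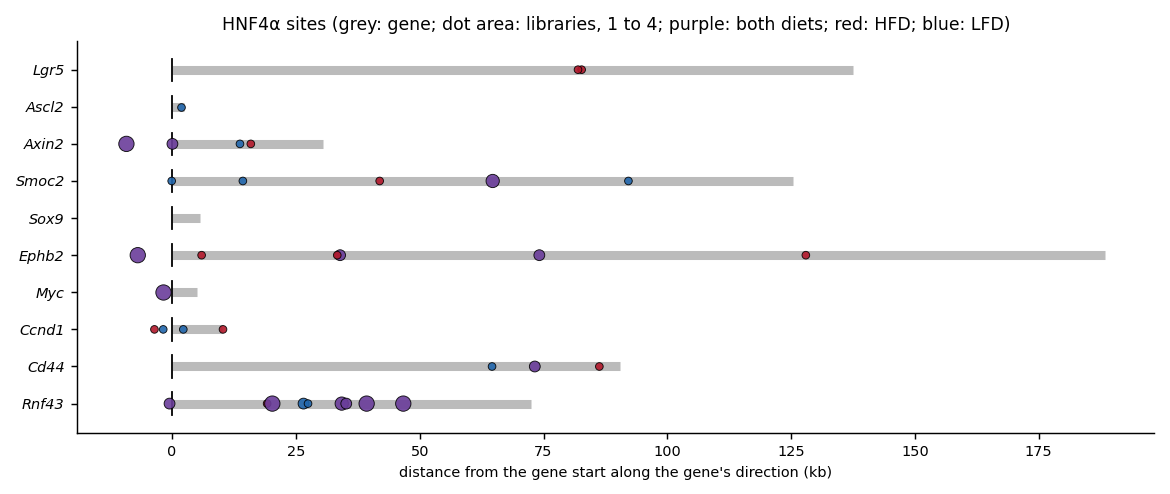
HNF4α sites (dots) at the 10 genes (grey bars), placed by the distance of their centre from the gene start along the gene (kb, x axis, upstream negative), with the dot area standing for the number of libraries (1 to 4) and the colour for both diets (purple), HFD only (red) or LFD only (blue). Rnf43 carries the most sites, and the one site in both LFD libraries and no HFD library lies 26.5 kb into it.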

How the data were processed

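The authors deposited 1 table of raw gene counts for 12 RNA-seq libraries, made with STAR 2.5 and featureCounts 1.5.0-p1 on mm9, and 39 peak lists, made per library after Bowtie 0.12.8 and Picard 1.110 with SICER (H3K27ac, H3K4me1) or HOMER (HNF4α). The lists give positions only, so peak height and the depth of these libraries are unknown. Here the counts were normalised by TMM and tested over 15893 genes with edgeR 4.0.16 (quasi-likelihood, filterByExpr, 4 groups in 1 fit, prior count 2, Benjamini-Hochberg adjustment), with DESeq2 1.42.0 as an alternative. Histone peaks were summed in bp within each gene extended by 10 kb, for every gene, and compared by two-sided exact permutation tests within sexes, donors or diets. Longer coverage can reflect a deeper library as well as more marked chromatin. The scripts were tested on simulated data. All 10 members are described in full, lists by their counts and their gene of smallest p, likeness by the 5 (Lgr5) or 2 genes of highest r. The members and lists were chosen with earlier results of these data known. Replicate numbers did not pair the libraries.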

Additional observations from a re-analysis of the deposited data

Results flagged for a closer look

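The donor effect on Ccnd1 differed between the diets by 0.70 on the log2 scale (edgeR interaction of diet and bacteria, SE 0.28, adjusted p = 0.417). Under HFD the log2 fold change of HFB against LFB recipients was 0.61, and under LFD it was -0.08. It passed an unadjusted p under 0.05, as did 11.3% of all genes, and no longer did on leaving out the library HFDHFB 1 or 2, HFDLFB 1 or 3, LFDHFB 2, or LFDLFB 1 or 2. Without those libraries in turn it ranged from 0.46 to 0.70, and it is reported as a value that failed the correction.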

How the results depend on the processing

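No member reached an adjusted p under 0.05 in any alternative, and the peak lists, which hold no reads, limit the chromatin values to lengths and counts. Of 290 member values under the RNA alternatives 17 changed sign, and of 200 histone values 30 did, nearly all of them differences that had not passed a test. The cause of these changes was not tested.

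The count of all genes called, 0 in every edgeR comparison, became 80 (HFDHFB against HFDLFB), 1 (LFDHFB against LFDLFB), 147 (HFDHFB against LFDHFB), 11 (HFDLFB against LFDLFB) and 96 (interaction) with DESeq2, and 14, 1, 44, 9 and 19 at an unadjusted p under 0.001. The fit with HFDLFB by replicate 3 alone was added after seeing the data and assumes that this library varies like the other groups. Its count of genes called is therefore not read. Some log2 fold changes turned in it. For HFDHFB against HFDLFB they were Lgr5 at -0.27, Smoc2 at 0.36 and Ephb2 at -0.14. For HFDLFB against LFDLFB they were Lgr5 at 0.46, Ascl2 at 0.16, Smoc2 at -0.42 and Rnf43 at 0.18. For the interaction they were Lgr5 at -0.26, Smoc2 at 0.52 and Cd44 at 0.43. Lgr5 turned for LFDHFB against LFDLFB at 0.0065 with DESeq2 size factors and with DESeq2, 0.0070 with no filter and 0.0092 with only the 2 groups compared, and Myc for HFDHFB against LFDHFB at -0.0032 with DESeq2 size factors and with DESeq2. The fit of only 2 groups cannot give an interaction and was not run for it.

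The replicate numbers do not pair the libraries: same-numbered RNA libraries correlated at -0.591 to 0.451 (6 of 18 pairs over 0.1, 0 of 12 libraries closest to their own number), and no histone pair exceeded 0.0813. With the replicate block edgeR called 0 genes in every comparison, Cd44 turned to 0.075 for HFDLFB against LFDLFB, and the genes with p under 0.05 numbered 340 for long-term H3K27ac, 394 for H3K4me1 and 0 in both recipient comparisons, where 5 pairs cannot reach that p. Sox9 turned to 40 bp between donors.

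For the 719 (H3K27ac), 684 (H3K4me1), 2671 (recipients by diet) and 590 (recipients by donor) genes with p under 0.05, counting peaks gave 163, 186, 714 and 224, and the recipient diet count was 1626 with the locus alone and 4093 with 50 kb. Differences that turned with the locus alone were Myc at 100 bp in long-term H3K27ac, Smoc2 at 1000 and Ccnd1 at -71.7 in H3K4me1, and Ascl2 at -682 and Ccnd1 at -138 in recipients by diet. With 50 kb they were Sox9 at 1100 and Myc at 433 (H3K27ac), Smoc2 at 1467, Myc at 119 and Rnf43 at -500 (H3K4me1) and Axin2 at -1483 (donors). In numbers of peaks they were Ascl2 at -0.333, Ccnd1 at -0.5 and Rnf43 at -0.833 (H3K27ac), Axin2 at -0.833, Ephb2 at -0.5, Myc at 0.167 and Rnf43 at -1.5 (H3K4me1), Ascl2 at -0.0833 and Ccnd1 at -0.667 (recipients by diet) and Sox9 at 0.417 (donors). Per Mb covered they were Ascl2 at -0.118, Axin2 at -2.9, Ccnd1 at -0.162 and Rnf43 at -8.98 (H3K27ac), Ascl2 at -0.0983, Sox9 at -4.21 and Rnf43 at -12.7 (recipients by diet) and Sox9 at 2.34 (donors).

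Leaving out each library in turn, the log2 fold changes that crossed 0 ranged, for HFDHFB against HFDLFB, Smoc2 from -0.44 to 0.29. For LFDHFB against LFDLFB they were Lgr5 from -0.62 to 0.36, Ccnd1 from -0.26 to 0.17, Ascl2 from -0.43 to 0.27, Sox9 from -0.42 to 0.067, Myc from -0.55 to 0.060, Cd44 from -0.20 to 1.09, Rnf43 from -0.32 to 0.079 and Axin2 from -0.073 to 0.29. For HFDHFB against LFDHFB they were Cd44 from -0.39 to 0.65, Lgr5 from -0.10 to 0.81, Axin2 from -0.14 to 0.11, Smoc2 from -0.14 to 0.32, Sox9 from -0.17 to 0.35, Ephb2 from -0.27 to 0.0045 and Myc from -0.24 to 0.38. For HFDLFB against LFDLFB they were Cd44 from -0.21 to 0.57, Lgr5 from -0.98 to 0.042, Rnf43 from -0.53 to 0.019 and Smoc2 from -0.34 to 0.34, and for the interaction Smoc2 from -0.27 to 0.46, Cd44 from -0.61 to 0.65 and Rnf43 from -0.44 to 0.11. In bp, long-term H3K27ac gave Ascl2 from -33.3 to 317, Cd44 from -50 to 2400 and Myc from -250 to 100, and H3K4me1 gave Cd44 from -317 to 2450, Smoc2 from -1015 to 918, Axin2 from -33.3 to 1117, Myc from -633 to 317, Ephb2 from -171 to 3279 and Lgr5 from -233 to 1567. Recipients by diet gave Ascl2 from -300 to 433, and by donor Smoc2 from -1900 to 100, Cd44 from -2900 to 500, Axin2 from -700 to 1100, Sox9 from -367 to 83.3, Ephb2 from -3700 to 3800, Rnf43 from -469 to 2781 and Ccnd1 from -483 to 66.7. The counts of genes with p under 0.05 ranged from 641 to 1454 for long-term H3K27ac (1454 without HFD male 1), from 1310 to 2765 for recipients by diet (1310 without HFDHFB 2) and from 354 to 706 for recipients by donor (354 without HFDLFB 1).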
